A study of Mus musculus with 9 samples.

Results

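Iron-sulfur (Fe-S) clusters are inorganic cofactors of the respiratory chain, of lipoyl synthase and of several DNA polymerases and tRNA-modifying enzymes, and their assembly begins in mitochondria. A cysteine desulfurase supplies sulfur, a scaffold protein builds a first small cluster, a chaperone pair hands it to a carrier, and late-acting proteins convert it to the larger cubane type and pass it to recipient proteins. The 9 genes described here encode parts of that machinery. Nfs1 is the desulfurase and Lyrm4 its small stabilising partner, Iscu is the scaffold, Hscb is the co-chaperone that binds the scaffold, Glrx5 is the carrier, Isca1, Isca2 and Iba57 act together in making the cubane type, and Nfu1 delivers clusters to recipients such as lipoyl synthase. They were taken as a list of gene symbols by their role, with no threshold on a measured value, but the list was drawn up with earlier results of these data known. All 9 matched 1 identifier each among the 37310 genes in the count tables. All 9 were also among the 16224 genes that passed the filter on low counts.

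Messenger RNA was measured by directional sequencing of RNA depleted of ribosomal RNA in mouse embryonic stem (ES) cells derived from the E14 line, 3 libraries in each of 3 groups, all at 72 h. The group labelled Zbtb11 KO carried Zbtb11lox/lox alleles, which Cre recombinase can delete, and ERt2-Cre at the Rosa26 locus, and was given 250 nM 4-hydroxytamoxifen (4OHT), the ligand that activates this form of Cre. The 4OHT control was of genotype Zbtb11WT/WT with a WT Rosa26 locus and received 250 nM 4OHT. The EtOH control had the same floxed alleles and Cre as the labelled KO cells and received ethanol, the carrier of 4OHT. The labelled KO and EtOH control cells therefore share a genotype before treatment, but differ in drug and Cre activation as well as in the deletion that the label names. The labelled KO cells differ from the 4OHT control in starting genotype and Cre as well as in that deletion. The 4OHT control differs from the EtOH control in genotype as well as in drug. Within each comparison these differences cannot be told apart. The labels do not say whether either line was 1 clone or whether replicates were separate cultures. A p-value here therefore sets a difference between groups against the spread of these libraries, which may be technical.

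Gene counts per library lay between 16909139 and 23544893. The share of reads that overlapped none of the features counted was 32.7% to 33.8% in labelled KO libraries, 26.7% to 27.5% in the 4OHT control and 26.4% to 28.7% in the EtOH control. Such reads may still lie within a gene, outside the parts that were counted. This share moved with the labelled KO group, and its part in the results below was not tested. Zbtb11 itself had 377 ± 8.47 CPM (gene counts scaled by library size and TMM factors) in the labelled KO group, against 368 ± 9.31 CPM in the 4OHT control and 355 ± 6.70 CPM in the EtOH control (SD, n = 3), with a log2 fold change in labelled KO against EtOH control of 0.09 (edgeR adjusted p = 0.17; 0.032 when the replicate number was a block, 0.013 under library totals as the only scaling). Since the gene-level count was not lower and reads outside a deleted part are still counted, this value does not check the labels, and the name labelled KO is used for the group. Summed over 8 ES cell markers, levels were 3760 to 4080 CPM in the labelled KO group, against 4090 to 4660 CPM in the 4OHT control and 3930 to 4120 CPM in the EtOH control, and each of the 8 was above 1 CPM in every group. Of these 8, Esrrb fell in labelled KO against EtOH control (log2 fold change -0.235, edgeR adjusted p = 0.031) and 0 rose. That is 12.5% called, against 27.2% of all tested genes. With the replicate number as a block 2 fell and 1 rose, where 42.8% of all tested genes were called. Summed levels of 6 primitive endoderm markers were 18.9 to 22.2 CPM in the labelled KO group, against 9.16 to 11.1 CPM in the 4OHT control and 10.9 to 17.1 CPM in the EtOH control, with 2 of the 6 below 1 CPM in every group; Gata6, Gata4 and Sox17 rose in labelled KO against EtOH control, 3 of the 5 that were tested, of which Gata6 kept its call in all 16 alternatives. That of Gata4 ended without EtOH control replicate 2 (0.12) or 3 (0.1) or KO replicate 1 (0.16) or 3 (0.051), and that of Sox17 with DESeq2 (0.18), with no filter on low counts (0.066) and without EtOH control replicate 1 (0.076), 2 (0.094) or 3 (0.072) or KO replicate 1 (0.1) or 3 (0.072). The part of these markers in the results was not tested, and in bulk RNA a change in cell types and a change per cell cannot be told apart.

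Transcripts of the assembly machinery stayed close to the EtOH control in the labelled KO libraries. Of the 9 genes, Iba57 rose and Nfs1 fell, and the other 7 were not called at an adjusted p (false discovery rate over all tested genes) under 0.05 in edgeR's quasi-likelihood test. The share of 22.2% called is near the 27.2% of all tested genes called in this comparison (14.2% lower and the remainder higher), so the count does not set these genes apart. Libraries of the 2 groups did not overlap for 2 of the 9, against 41.9% of all tested genes. Fitted levels lay between 84.9% of the EtOH control for Nfu1 and 126% for Iba57. The median log2 fold change was -0.09 for the 9 genes and 0.01 for all genes tested (-0.02 for the 9 and 0.09 for all with library totals). With the replicate number as a block, which the data pair across groups, Nfu1 was called as well, giving 2 falls and 1 rise. That fit called 42.8% of all tested genes.

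**Figure D1:**
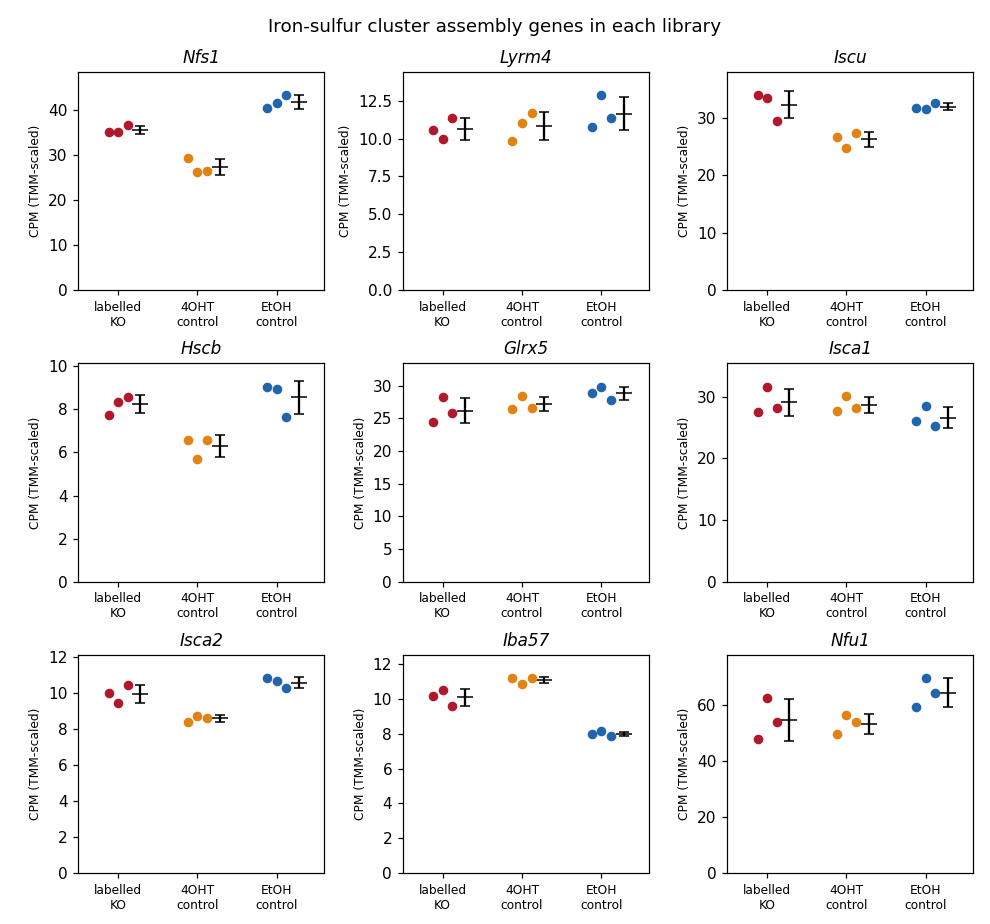
CPM (TMM-scaled) of each assembly gene in every library, 3 points per group, with the mean and SD beside them as a black bar. Nfs1 lies in 3 separate ranges, lowest in the 4OHT control, and Iba57 is lower in the EtOH control (7.89 to 8.13 CPM) than in both other groups.

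The desulfurase gene Nfs1 (ENSMUSG00000027618.10) had 35.05, 35.02 and 36.55 CPM in the labelled KO group, against 29.4, 26.3 and 26.4 CPM in the 4OHT control and 40.3, 41.6 and 43.2 CPM in the EtOH control. The 3 groups did not overlap, and the labelled KO libraries lay between the controls. Nfs1 fell in labelled KO against EtOH control by 0.23 on the log2 scale (SE 0.07, adjusted p = 0.016), to 85.3% of the control level. It rose in labelled KO against 4OHT control (log2 fold change 0.38, SE 0.07, adjusted p = 0.00038). It fell in the 4OHT control against the EtOH control by 0.61 on the log2 scale (SE 0.07, adjusted p = 1.2e-05), to 65.7% of the EtOH control level. The fall against the EtOH control was not called with library totals as the only scaling (log2 fold change -0.16, adjusted p = 0.088), without EtOH control replicate 3 (0.062) or without KO replicate 1 (0.051), whereas its calls in the other 2 comparisons held in all 16 alternatives. The gene Romo1, which regulates mitochondrial reactive oxygen species, starts 147 bases from Nfs1 on the opposite strand and overlaps it in the annotation. It had 15.5 ± 0.63 CPM in the labelled KO group, against 13.7 ± 0.36 CPM in the 4OHT control and 14.2 ± 1.07 CPM in the EtOH control, with no call in the labelled KO against the EtOH control (log2 fold change 0.13, adjusted p = 0.31) or in the 4OHT control against the EtOH control (-0.05, adjusted p = 0.78).

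Iba57 (ENSMUSG00000049287.5), which works with Isca1 and Isca2 in forming cubane clusters, had 10.2, 10.5 and 9.57 CPM in the labelled KO group, against 11.2, 10.9 and 11.2 CPM in the 4OHT control and 7.96, 8.13 and 7.89 CPM in the EtOH control. Both groups given 4OHT lay above the EtOH control, and every 4OHT control library lay above every labelled KO library. Iba57 rose in labelled KO against EtOH control (log2 fold change 0.34, SE 0.10, adjusted p = 0.019). It also rose in the 4OHT control against the EtOH control (log2 fold change 0.47, SE 0.10, adjusted p = 0.0031), where all 16 alternatives kept the call. Against the 4OHT control its log2 fold change in labelled KO was -0.14 (95% confidence interval -0.34 to 0.07, adjusted p = 0.28). The call in labelled KO against EtOH control ended with DESeq2 (adjusted p = 0.071), with no filter on low counts (0.055), without EtOH control replicate 1 (0.056), 2 (0.053) or 3 (0.055) and without KO replicate 1 (0.063) or 2 (0.068).

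The promoters of these 2 genes are shown because they carry the 2 calls and moved in opposite directions. Each window runs from 250 bases before to 50 bases after the gene start in RefSeq (build GRCm38.p6), 5′ to 3′ along the gene's own strand. That build differs from the one named for the counts, so the positions belong to the sequence only. Capitals mark CTTCCGG, the reverse complement of CCGGAAG, a core bound by ETS factors such as GABP, a known activator of nuclear genes for mitochondrial proteins.
Nfs1, chr2:156144137-156144436, minus strand: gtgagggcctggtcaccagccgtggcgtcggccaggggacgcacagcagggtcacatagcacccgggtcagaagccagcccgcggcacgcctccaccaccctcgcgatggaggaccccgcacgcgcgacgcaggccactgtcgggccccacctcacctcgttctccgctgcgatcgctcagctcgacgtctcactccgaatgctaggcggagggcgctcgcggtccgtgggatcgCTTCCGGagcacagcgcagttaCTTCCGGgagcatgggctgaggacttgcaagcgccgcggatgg
Iba57, chr11:59163696-59163995, minus strand: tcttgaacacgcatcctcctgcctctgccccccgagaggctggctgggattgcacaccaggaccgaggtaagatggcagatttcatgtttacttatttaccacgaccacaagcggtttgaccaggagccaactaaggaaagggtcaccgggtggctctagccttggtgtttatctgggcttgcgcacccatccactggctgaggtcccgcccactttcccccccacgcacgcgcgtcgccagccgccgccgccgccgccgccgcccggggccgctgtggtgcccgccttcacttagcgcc
CCGGAAG was searched on both strands. The Nfs1 window holds 2 matches, at positions 236 and 258 counted from 1 at its 5′ end, on either side of the gene start, and the Iba57 window holds none. Promoters were found for 7 of the 9 genes (Nfs1, Lyrm4, Glrx5, Isca1, Isca2, Iba57 and Nfu1), and 3 of them, Nfs1, Isca1 and Isca2, hold at least 1 match, against 8.86% of all 32851 windows. The palindromic motif of NRF1, another activator of such genes, is in 2 of the 7, Isca1 and Nfu1, against 4.6% of all windows. A match describes the letters only, and a window without one says nothing of the factor.

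Lyrm4 (ENSMUSG00000046573.6), the partner that stabilises the desulfurase, had 10.6, 9.97 and 11.4 CPM in the labelled KO group, against 9.82, 11.04 and 11.7 CPM in the 4OHT control and 10.7, 12.9 and 11.4 CPM in the EtOH control. The 3 groups overlapped and Lyrm4 was not called in any comparison. Its log2 fold change in labelled KO against EtOH control was -0.13 (95% confidence interval -0.36 to 0.10, adjusted p = 0.38), so a fall of the size seen for Nfs1 lies within the interval. Fars2, a mitochondrial tRNA synthetase gene that starts 114 bases from Lyrm4 on the opposite strand and overlaps it, was not called in the 4OHT control against the EtOH control either (-0.13, adjusted p = 0.41).

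Iscu (ENSMUSG00000025825.6), the scaffold, had 33.95, 33.5 and 29.5 CPM in the labelled KO group, against 26.75, 24.7 and 27.3 CPM in the 4OHT control and 31.7, 31.5 and 32.6 CPM in the EtOH control. The 4OHT control was below both other groups without overlap, and those 2 groups overlapped. Iscu rose in labelled KO against 4OHT control (log2 fold change 0.30, SE 0.07, adjusted p = 0.0043) and fell in the 4OHT control against the EtOH control (-0.28, SE 0.07, adjusted p = 0.014). In labelled KO against EtOH control its log2 fold change was 0.02 (95% confidence interval -0.13 to 0.17, adjusted p = 0.87). The fall in the 4OHT control was not called without 4OHT control replicate 2 (adjusted p = 0.061) or EtOH control replicate 3 (0.05). Sart3, a splicing factor gene that starts 238 bases from Iscu on the opposite strand, was not called in the 4OHT control against the EtOH control (128 ± 5.14 against 122 ± 7.94 CPM, log2 fold change 0.07, adjusted p = 0.44). It fell in labelled KO against 4OHT control (-0.16, adjusted p = 0.035), a call that ended with library totals (0.27) and without 4OHT control replicate 2 (0.12) or 3 (0.079) or KO replicate 1 (0.11) or 2 (0.052).

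Hscb (ENSMUSG00000043510.6), the co-chaperone that works on the scaffold with Hspa9, was, like Iscu, lowest in the 4OHT control. It had 7.77, 8.37 and 8.58 CPM in the labelled KO group, against 6.59, 5.70 and 6.58 CPM in the 4OHT control and 9.06, 8.97 and 7.65 CPM in the EtOH control. The 4OHT control lay below both other groups, which overlapped. Hscb rose in labelled KO against 4OHT control (log2 fold change 0.38, SE 0.12, adjusted p = 0.019) and fell in the 4OHT control against the EtOH control (-0.45, SE 0.12, adjusted p = 0.016), and in labelled KO against EtOH control its log2 fold change was -0.06 (95% confidence interval -0.31 to 0.18). Hscb also had the lowest count of the 9 genes in any library, 97 reads, for which counting alone gives an error of 10.2%. The rise was not called with DESeq2 (adjusted p = 0.057) or without 4OHT control replicate 2 (0.076), KO replicate 2 (0.052) or KO replicate 3 (0.057), and the fall was not called without 4OHT control replicate 2 (0.065), EtOH control replicate 1 (0.063) or EtOH control replicate 2 (0.07). Chek2, a DNA damage kinase gene that starts 202 bases from Hscb on the opposite strand, fell in the 4OHT control against the EtOH control too (38.9 ± 4.16 against 56.0 ± 4.34 CPM, log2 fold change -0.52, adjusted p = 0.0018). In labelled KO, Chek2 was at -0.265 against EtOH control (adjusted p = 0.055, or 0.00026 with the replicate block). Against 4OHT control it was at 0.258 (adjusted p = 0.051, or 0.00065 with the block).

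Glrx5 (ENSMUSG00000021102.3), the glutaredoxin that carries new clusters onward, had 24.5, 28.2 and 25.7 CPM in the labelled KO group, against 26.4, 28.4 and 26.6 CPM in the 4OHT control and 28.9, 29.8 and 27.9 CPM in the EtOH control. The groups overlapped and Glrx5 was not called in any comparison, with a log2 fold change in labelled KO against EtOH control of -0.14 (95% confidence interval -0.30 to 0.01, adjusted p = 0.16).

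Of the A-type assembly pair, Isca1 (ENSMUSG00000044792.6) was not called in any comparison. It had 27.6, 31.7 and 28.1 CPM in the labelled KO group, against 27.7, 30.1 and 28.2 CPM in the 4OHT control and 26.03, 28.6 and 25.3 CPM in the EtOH control, and the 3 groups overlapped. Its antisense neighbour Etohd2, at about 1 CPM, was not called in the 4OHT control against the EtOH control (-0.19, adjusted p = 0.67). Isca2 (ENSMUSG00000021241.6), its partner, had 10.0, 9.44 and 10.4 CPM in the labelled KO group, against 8.39, 8.75 and 8.64 CPM in the 4OHT control and 10.8, 10.7 and 10.3 CPM in the EtOH control. The 4OHT control lay below both other groups, and Isca2 fell there against the EtOH control (log2 fold change -0.30, SE 0.10, adjusted p = 0.043). That call ended without any 1 of the 6 libraries compared: the adjusted p was 0.11, 0.079 and 0.088 without 4OHT control replicate 1, 2 and 3, and 0.12, 0.11 and 0.072 without EtOH control replicate 1, 2 and 3. It also ended with DESeq2 (0.1) and with no filter on low counts (0.11). In labelled KO against 4OHT control the log2 fold change of Isca2 was 0.21 (adjusted p = 0.10, or 0.028 with library totals), and in labelled KO against EtOH control -0.09 (95% confidence interval -0.30 to 0.12). Npc2, a cholesterol carrier gene that starts 99 bases from Isca2 on the opposite strand, also fell in the 4OHT control against the EtOH control (38.9 ± 2.11 against 57.6 ± 3.35 CPM, log2 fold change -0.56, adjusted p = 2.1e-05).

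Nfu1 (ENSMUSG00000029993.10), the late-acting delivery protein, had the highest mean CPM of the 9 genes in each group. Its values were 47.8, 62.8 and 54.2 CPM in the labelled KO group, against 49.6, 56.7 and 54.0 CPM in the 4OHT control and 59.6, 69.75 and 64.5 CPM in the EtOH control. In each group replicate 1 was lowest and replicate 2 highest. Against the EtOH control its log2 fold change in labelled KO was -0.24 (SE 0.09, adjusted p = 0.068), and with the replicate block it was called (-0.24, adjusted p = 0.00015). Nfu1 was also called in this comparison with DESeq2 (0.047), with no filter on low counts (0.0063), without EtOH control replicate 1 (0.04) and without KO replicate 2 (0.0066). In the 4OHT control against the EtOH control Nfu1 fell (log2 fold change -0.28, SE 0.09, adjusted p = 0.049). That call ended with RLE size factors (0.053) and without 4OHT control replicate 1 (0.15), 2 (0.06) or 3 (0.093), EtOH control replicate 2 (0.19) or 3 (0.11) or KO replicate 3 (0.063). Labelled KO and 4OHT control libraries overlapped (log2 fold change 0.04, 95% confidence interval -0.16 to 0.24).

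**Figure D2:**
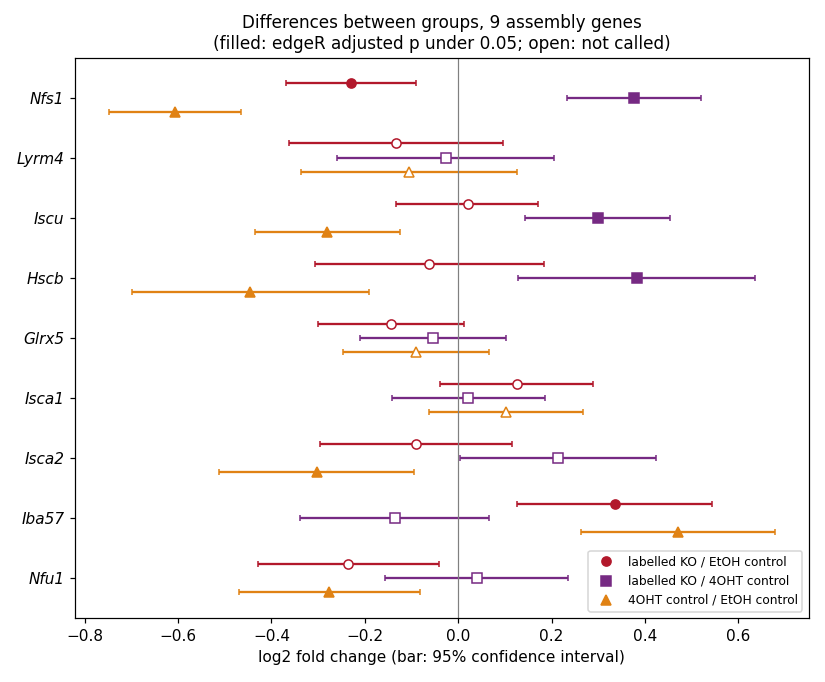
Log2 fold changes of the 9 genes in the 3 comparisons, with 95% confidence intervals; filled symbols were called by edgeR at an adjusted p under 0.05. The triangles, for the 4OHT control against the EtOH control, range from -0.61 for Nfs1 to 0.47 for Iba57, and the circles, for labelled KO against the EtOH control, from -0.24 for Nfu1 to 0.34 for Iba57.

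The comparisons that involve the 4OHT control are set side by side here. In the 4OHT control against the EtOH control, 5 fell (Nfs1, Hscb, Isca2, Iscu and Nfu1) and Iba57 rose, which is 66.7% called against 18.4% of all tested genes (9.66% higher, 8.75% lower), with a median log2 fold change of -0.28 against 0.00 for all genes. In labelled KO against 4OHT control, Hscb, Nfs1 and Iscu rose and 0 fell in edgeR's test (0 lower at an unadjusted p under 0.05 and 0 lower with DESeq2, which called 2 higher). That is 33.3% called against 38.9% of all tested genes (19.1% higher, 19.8% lower), with a median of 0.04 against 0.02, and a median of 0.13 for the 9 without KO replicate 1. The libraries of the 2 groups did not overlap for 6 of the 9 genes in the 4OHT control against the EtOH control, where this held for 35.1% of all tested genes, and for 5 of the 9 in labelled KO against 4OHT control, where it held for 48.2%. These comparisons share libraries, so they are not independent of each other, and no test compared one with another. Leaving out single libraries brought the 5 falls in the 4OHT control down to 1 without 4OHT control replicate 2, to 2 without EtOH control replicate 2 or 3, and to 3 without 4OHT control replicate 1 or 3 or EtOH control replicate 1. The rise of Iba57 and the fall of Nfs1 were called in each of those fits.

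Markers of several cell types also differed between the 2 controls. In the 4OHT control against the EtOH control 3 of the 8 ES cell markers rose and 0 fell, 37.5% called against 18.4% of all tested genes. The 3 were Klf4 (log2 fold change 0.36, adjusted p = 0.019), Zfp42 (0.27, adjusted p = 0.0013) and Dppa5a (0.40, adjusted p = 0.017). Nanog (-0.35, adjusted p = 0.16) and Sox2 (-0.03, adjusted p = 0.79) went the other way and were not called. With the replicate block 5 rose and Nanog fell (adjusted p = 6.5e-08), where 32.8% of all tested genes were called. Neurod1, a neural transcription factor gene, had 9.96 CPM in the 4OHT control and 24.9 CPM in the EtOH control (-1.31, adjusted p = 7.2e-05), and 36.7 CPM in labelled KO libraries (0.56 against EtOH control, adjusted p = 0.0088). The other tested neural markers, Pax6 and Tubb3, went the opposite way in both comparisons and were not called. Their log2 fold changes were 0.22 and 0.09 in the 4OHT control against the EtOH control (adjusted p = 0.26 and 0.34). In labelled KO against EtOH control they were -0.11 and -0.07 (adjusted p = 0.55 and 0.42). Of the 4 tested fibroblast markers the collagen genes Col1a2 (-2.05, adjusted p = 3.4e-05) and Col1a1 (-0.74, adjusted p = 0.00052) fell in the 4OHT control against the EtOH control. Thy1 rose there (0.50, adjusted p = 0.0069) and Pdgfrb was not called (0.175, adjusted p = 0.57). Of the 5 tested primitive endoderm markers only Dab2 was called, and it fell (-0.66, adjusted p = 0.014). The log2 fold change of Gata4 was positive (0.10, adjusted p = 0.86) and 4 of the 5 were negative. The shares called were 75% of the fibroblast and 20% of the primitive endoderm markers, against 18.4% of all tested genes. The call of Klf4 ended without 4OHT control replicate 1 (0.057) or EtOH control replicate 2 (0.077), that of Dppa5a with library totals (0.054) and without EtOH control replicate 2 (0.057) or 3 (0.062), and that of Dab2 without 4OHT control replicate 2 (0.06) or 3 (0.06) or EtOH control replicate 1 (0.075). Against the 4OHT control, 4 of the 8 ES cell markers fell in the labelled KO group and 4 of 5 tested primitive endoderm markers rose. That is 50% and 80% called, against 38.9% of all tested genes (19.1% higher, 19.8% lower). Nanog (0.40, adjusted p = 0.068) and Sox2 (0.02, adjusted p = 0.80) had positive log2 fold changes there and were not called. With the replicate block 6 ES cell markers fell and Nanog rose (adjusted p = 3e-09), where 51.4% of all tested genes were called. The part of any of these markers in the differences of the assembly genes was not tested.

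Levels were compared between genes as RPKM (CPM divided by exon length in kilobases), using the union of each gene's exons in GENCODE M21. In the EtOH control the order was Iscu (14.7 ± 0.27), Nfu1 (13.4 ± 1.06), Nfs1 (11.5 ± 0.40), Hscb (9.46 ± 0.87), Glrx5 (7.83 ± 0.27), Isca2 (5.76 ± 0.15), Lyrm4 (5.58 ± 0.52), Isca1 (2.50 ± 0.16) and Iba57 (1.64 ± 0.03 RPKM; SD, n = 3). Of neighbours in that order, Isca2 and Lyrm4 overlapped between libraries and the others did not. The labelled KO libraries had the same order, with Nfu1 and Nfs1 also overlapping. In the 4OHT control Glrx5 stood above Hscb and Lyrm4 above Isca2, each within the overlap of their libraries. The order depends on the length used. With the principal coding transcript instead, a choice made after seeing the data, Isca1 was at 13.7 RPKM in the EtOH control and at place 4 in the order; its exon union is 10680 bases and its principal transcript 1942 bases, and Nfu1 (54.1 RPKM) stood above Iscu (33.4 RPKM). Nfu1 and Iscu held the top 2 places and Iba57 the lowest in every group with both lengths.

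Nfs1 was the gene of the 9 with the smallest p in labelled KO against EtOH control, and its pattern was compared with 10362 other named genes of mean log2 CPM of at least 2. The 5 genes most alike in log2 CPM over the 9 libraries were Ifi35 (Pearson r = 0.993), Elavl2 (0.992), Ncapd2 (0.990), Psme2 (0.989) and Prep (0.988). The 9 libraries fall into 3 groups, so the r values describe mainly the group means, and they were chosen as the highest of many. Ncapd2, a condensin subunit gene, had 422 ± 19.9 CPM in the labelled KO group, against 297 ± 25.1 CPM in the 4OHT control and 508 ± 15.6 CPM in the EtOH control. Psme2, a proteasome activator subunit gene, had 41.9 ± 2.88, 31.0 ± 1.52 and 50.7 ± 1.16 CPM in labelled KO, 4OHT control and EtOH control libraries. In the 4OHT control against the EtOH control the log2 fold changes of the 5 ran from -1.02 for Ifi35 (adjusted p = 1.7e-05) to -0.36 for Prep (adjusted p = 0.0001), on either side of the -0.61 of Nfs1. The direction of these falls follows from choosing the genes by likeness to Nfs1 over the same libraries, so it is not a separate result.

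**Figure D3:**
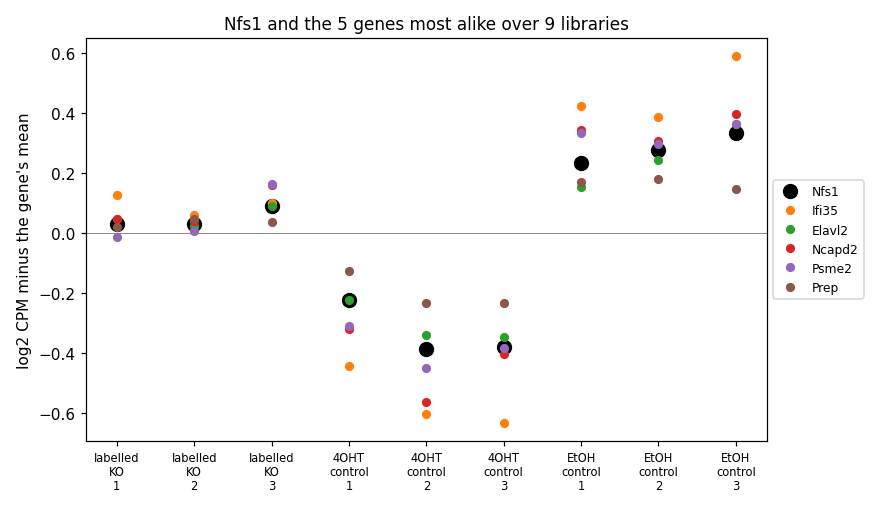
Log2 CPM of Nfs1 (large black points) and the 5 genes most alike, each minus its own mean, in the 9 libraries. For all 6 genes the 4OHT control libraries are lowest, the labelled KO libraries in the middle and the EtOH control libraries highest. The 5 genes were chosen by their likeness to Nfs1 over these libraries, so the shared order follows from the choice.

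The rest of the pathway was described from lists grouped by known role, which were also drawn up with earlier results of these data known. Of 13 other mitochondrial assembly and export genes, 1 rose and 1 fell in labelled KO against EtOH control, and the other 11 were not called, with a list median of -0.04. That is 15.4% called, against 27.2% of all tested genes. The gene that rose was Ndufab1, the mitochondrial acyl carrier protein, which is also part of the desulfurase complex. It had 57.6 ± 2.34 CPM in the labelled KO group, against 49.0 ± 0.22 CPM in the 4OHT control and 50.1 ± 1.64 CPM in the EtOH control (log2 fold change against EtOH control 0.20, adjusted p = 0.016). That call ended with DESeq2 (0.058) and without EtOH control replicate 1 (0.063) or 3 (0.059) or KO replicate 1 (0.072) or 2 (0.071). Bola1 (-0.23, adjusted p = 0.10) and Fdx2, the ferredoxin of cluster synthesis (-0.20, adjusted p = 0.11), were not called, and were called with the replicate block (0.033 and 0.034), which gave 3 falls and 1 rise in the list. With that block 42.8% of all tested genes were called.

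Of 11 genes of the cytosolic assembly system, 0 were called in labelled KO against EtOH control by edgeR (1 higher and 0 lower at an unadjusted p under 0.05; 0 called with DESeq2), with a median of -0.01. The share of all tested genes called by edgeR in this comparison was 27.2%. The 4 with the smallest p were Ciao2b (0.18, adjusted p = 0.073; 0.028 under the replicate block, 0.021 when scaled by library totals), Nubp1 (-0.12, adjusted p = 0.18), Ciao3 (0.13, adjusted p = 0.23) and Ciapin1 (-0.07, adjusted p = 0.44, or 0.046 without KO replicate 2). Ciapin1, an electron transfer protein of that system, differed between the controls. It had 101 ± 10.5 CPM in the labelled KO group, against 136 ± 7.06 CPM in the 4OHT control and 107 ± 1.73 CPM in the EtOH control, with log2 fold changes of 0.36 in the 4OHT control against the EtOH control (adjusted p = 0.0014) and -0.43 in labelled KO against 4OHT control (adjusted p = 0.00011).

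Genes for proteins that receive clusters included the 3 largest log2 fold changes of the 7 pathway lists in labelled KO against EtOH control. Of 15 mitochondrial recipients 7 fell and 3 rose in labelled KO against EtOH control, 66.7% against 27.2% of all genes, with a median of -0.13. Ndufs7, the complex I subunit that holds its terminal cluster, had 9.76, 11.2 and 11.2 CPM in the labelled KO group, against 37.75, 38.6 and 41.9 CPM in the 4OHT control and 37.5, 37.4 and 41.6 CPM in the EtOH control. The labelled KO libraries stood far below both controls, which overlapped, with log2 fold changes of -1.86 against EtOH control (SE 0.08, adjusted p = 7.9e-11) and -1.88 against 4OHT control (SE 0.08, adjusted p = 5.2e-11). Cdk5rap1, a methylthiotransferase of mitochondrial tRNAs, had 13.5 ± 1.32 CPM in the labelled KO group, against 26.2 ± 2.28 CPM in the 4OHT control and 30.7 ± 1.24 CPM in the EtOH control. It fell against EtOH control by 1.18 and against 4OHT control by 0.95 on the log2 scale (adjusted p = 8e-08 and 6.8e-07). Cisd3, a matrix protein of the CDGSH family, had 15.4 ± 1.03, 24.3 ± 2.22 and 23.6 ± 1.34 CPM in labelled KO, 4OHT control and EtOH control libraries (log2 fold changes -0.62 against EtOH control and -0.66 against 4OHT control, adjusted p = 0.00012 and 3.1e-05). Etfdh, which passes electrons from fatty acid oxidation to ubiquinone, rose against EtOH control (24.9 ± 1.27 against 18.2 ± 1.03 CPM, log2 fold change 0.45, adjusted p = 0.00052). Against 4OHT control Etfdh was not called (0.17, adjusted p = 0.099; 0.046 under the replicate block, 0.019 under library totals), and it rose in the 4OHT control against the EtOH control (0.28, adjusted p = 0.018), a call that ended without 4OHT control replicate 3 (0.069) or EtOH control replicate 1 (0.094).

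Of 18 tested genes listed as cytosolic and nuclear recipients 6 fell and 2 rose in labelled KO against EtOH control, 44.4% called against 27.2% of all tested genes, with a median of -0.16. With the replicate block 11 fell and 3 rose, where 42.8% of all tested genes were called. Pold1, the catalytic subunit of DNA polymerase delta, had 113 ± 4.18 CPM in the labelled KO group, against 135 ± 2.06 CPM in the 4OHT control and 158 ± 11.1 CPM in the EtOH control. It fell against EtOH control by 0.49 and against 4OHT control by 0.26 on the log2 scale (adjusted p = 1.2e-05 and 0.0017). Pole, of DNA polymerase epsilon (-0.27, adjusted p = 0.00076), and Mutyh, a DNA glycosylase (-0.49, adjusted p = 0.0004), also fell against EtOH control. Against 4OHT control neither was called, Pole at -0.10 (adjusted p = 0.098, or 0.016 under the replicate block) and Mutyh at -0.13 (adjusted p = 0.23). Mocs1, of molybdenum cofactor synthesis, was counted in this list although its protein acts in mitochondria. It rose against EtOH control (0.52, adjusted p = 0.0017) and against 4OHT control (0.38, adjusted p = 0.0088). Against the 4OHT control, 7 of the 15 mitochondrial recipients fell and 2 rose in the labelled KO group, and 5 of the 18 others fell and 3 rose. The background there was 38.9% of all tested genes called (51.4% with the replicate block), and the share was 60.0% for the mitochondrial recipients and 44.4% for the 18 others. In that comparison 2 of the 13 other mitochondrial assembly and export genes fell and 2 rose (4 and 3 with the replicate block), and 3 of the 11 cytosolic assembly genes fell and 1 rose, 30.8% and 36.4% called. With that block 4 of the cytosolic assembly genes fell and 2 rose. For the mitochondrial recipients it gave 8 falls and 3 rises, and for the 18 others 6 falls and 4 rises. No test compared these lists with the 9 assembly genes.

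**Figure D4:**
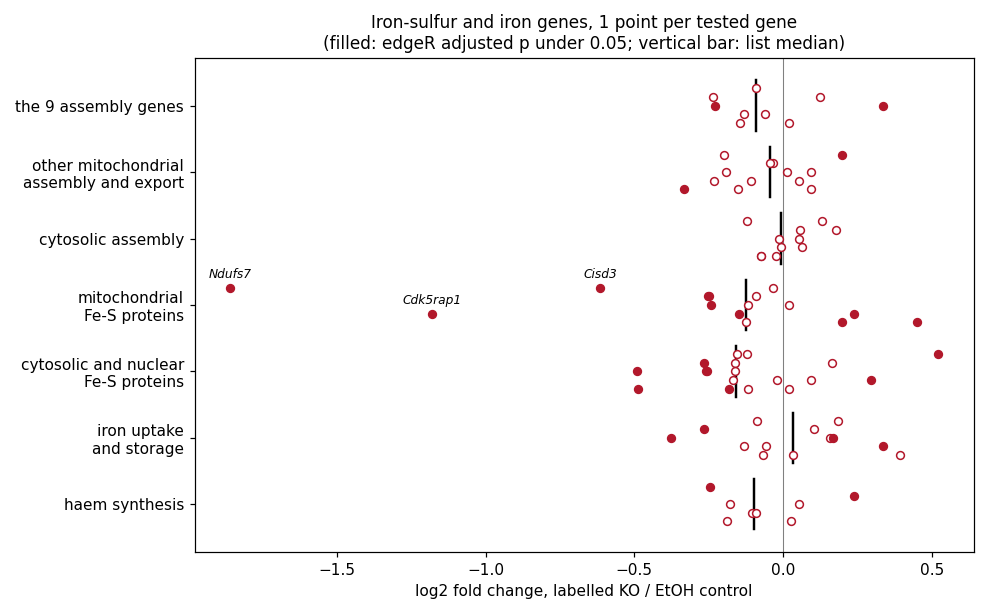
Log2 fold change in labelled KO against EtOH control for each tested gene of 7 lists, filled where edgeR's adjusted p was under 0.05, with a vertical bar at each list's median. The 9 assembly genes lie between -0.24 and 0.34, whereas Ndufs7 (-1.86), Cdk5rap1 (-1.18) and Cisd3 (-0.62) among the mitochondrial Fe-S proteins lie further out.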

How the data were processed

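The authors deposited raw read counts per gene under versioned Ensembl identifiers, 1 table per library, ending with the rows of HTSeq that name no gene. Per the submitters' processing notes the tools were cutadapt, STAR, HTSeq and edgeR, with Bowtie 1.1.2, MACS2 and DiffBind, and the build was mm9; their roles and the strand setting of the counting are not given in the sources used here. Genes that overlap on opposite strands may therefore share reads. Symbols came from GENCODE M21 and lengths from its exons. Rows naming no gene stayed out of totals and tests; reads that matched more than 1 gene were 0.78% to 0.91% of a file.

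Genes were tested in R 4.3.3 by the quasi-likelihood method of edgeR 4.0.16 and limma 3.58.1 (robust fit, TMM scaling, filterByExpr by group, 6 residual degrees of freedom) in 1 fit of the 9 libraries, with Benjamini-Hochberg adjustment over 16224 genes. SEs come from the F statistic. DESeq2 1.42.0 and 15 other settings were alternatives. In a check of pairing, deviations from group means correlated at 0.11 to 0.31 in all 9 pairs of libraries with the same replicate number, so the numbers pair the libraries; the labels do not say what they stand for. The genes named are all 9 assembly genes, up to 4 with the smallest p in labelled KO against EtOH control from each pathway list, Zbtb11 and the 5 genes most like the member with the smallest p; Romo1, Chek2, Npc2, Sart3, Fars2 and Etohd2, the neighbours with a count that start within 1 kb on the other strand, and single cell type markers were added after values were seen. The values of 2 genes that this rule names are not reported here. The 9 genes and all lists were chosen with earlier results of these data known. Marker lists of trophoblast, mesoderm, neural and fibroblast cells were also summed. Their ranges in labelled KO, 4OHT control and EtOH control libraries were 6.47 to 8.49, 5.11 to 7.11 and 4.77 to 6.42 CPM for trophoblast; 5.62 to 8.90, 5.28 to 8.20 and 5.20 to 7.83 CPM for mesoderm; 143 to 164, 139 to 154 and 138 to 165 CPM for neural; and 22.4 to 23.8, 18.2 to 18.9 and 18.3 to 22.8 CPM for fibroblast markers.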

Additional observations from a re-analysis of the deposited data

How the results depend on the processing

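Counts of called genes near the threshold moved with the settings. Iba57 was the 1 rise among the 9 genes in labelled KO against EtOH control, and the count became 0 with DESeq2 and 0 with no filter on low counts. The falls there, 1 in the fit as reported, became 2 with DESeq2, 2 with no filter, 0 with library totals and 2 with the replicate block. Leaving out 1 library at a time gave 0 to 1 rises and 0 to 2 falls in that comparison, 2 to 3 rises and 0 falls in labelled KO against 4OHT control, and 1 rise and 1 to 5 falls in the 4OHT control against the EtOH control. The replicate block raised the genes called to 6936 in labelled KO against EtOH control and to 5323 in the 4OHT control against the EtOH control, where 1974 were called without EtOH control replicate 2; with 1 library left out the ranges were 3067 to 4559, 1974 to 3069 and, in labelled KO against 4OHT control, 5011 to 6268. The block changed the call of no other gene of the 9 than Nfu1. Signs turned only for values that were not called in the fit as reported. In labelled KO against EtOH control, Iscu was at -0.003 with DESeq2 and, over fits without 1 library, between -0.026 (without KO replicate 1; -0.021 without KO replicate 2) and 0.074, and Hscb at 0.009 with library totals. In labelled KO against 4OHT control, library totals gave 0.029 for Glrx5 and 0.056 for Lyrm4; without 1 library, Isca1 lay between -0.050 (without KO replicate 2; -0.004 without 4OHT control replicate 1) and 0.059, Lyrm4 between -0.098 and 0.030 (without 4OHT control replicate 3; 0.008 without KO replicate 2), and Nfu1 between -0.075 (without KO replicate 2; -0.012 without 4OHT control replicate 1) and 0.131. Romo1 in the 4OHT control against the EtOH control lay between -0.091 and 0.012 (without EtOH control replicate 3). The cause was not tested. Having 3 libraries a group and 97 to 1595 reads per gene limits what could be called.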

Other observations

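Of 13 genes of iron uptake and storage 2 were higher in labelled KO against EtOH control and 2 lower (list median 0.03 on the log2 scale); with the replicate block 4 were higher and 4 lower. The share called without the block, 30.8%, is near the 27.2% of all tested genes, so that count does not set the list apart. With the block 42.8% of all tested genes were called, and whether the list stands apart there was not tested. Tfrc, the transferrin receptor through which cells take up iron, had 244, 314 and 258 CPM in the labelled KO group, against 357, 437 and 386 CPM in the 4OHT control and 332, 375 and 351 CPM in the EtOH control. It lay below both controls without overlap (log2 fold change -0.38 against EtOH control, adjusted p = 0.013, and -0.53 against 4OHT control, adjusted p = 0.0011). Without EtOH control replicate 2 the adjusted p against EtOH control was 0.054 and without KO replicate 3 it was 0.051. Fth1, the ferritin heavy chain that stores iron, had 442, 519 and 493 CPM in the labelled KO group, against 293, 321 and 314 CPM in the 4OHT control and 357, 409 and 387 CPM in the EtOH control. It rose against EtOH control (0.34, adjusted p = 0.0014) and against 4OHT control (0.65, adjusted p = 1.3e-06), and was lower in the 4OHT control than in the EtOH control (-0.31, adjusted p = 0.0031). Slc11a2, an iron importer, fell against EtOH control (-0.27, adjusted p = 0.02); this call ended with library totals (0.088) and without EtOH control replicate 1 (0.058) or KO replicate 3 (0.073). Pcbp2, an RNA-binding protein that also carries iron, rose (0.17, adjusted p = 0.011), a call that ended without EtOH control replicate 2 (0.058) or KO replicate 2 (0.06).

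Of 8 haem synthesis genes 1 rose and 1 fell in labelled KO against EtOH control, a share also near that of all genes, with a median of -0.10. Fech, the enzyme that inserts iron into haem and itself holds an Fe-S cluster, had 34.2 ± 0.63 CPM in the labelled KO group, against 28.4 ± 0.45 CPM in the 4OHT control and 29.0 ± 1.5 CPM in the EtOH control (log2 fold change 0.24 against EtOH control, adjusted p = 0.012, and 0.27 against 4OHT control, adjusted p = 0.0039). The call against EtOH control ended without EtOH control replicate 3 (0.062). Ppox (-0.19, adjusted p = 0.25) and Alas1, the first enzyme (-0.10, adjusted p = 0.31), were not called.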
